A study of Mus musculus with 8 samples.

Results

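The liver X receptor (LXR) genes described here are 9 named genes of sterol efflux in brown adipose tissue (BAT): the receptors Nr1h3 and Nr1h2, and the target genes Abca1, Abcg1, Apoe, Eepd1, Arl4c, Mylip and Lpcat3. They were picked by name from the 31053 Ensembl genes of the count table, 17367 of which had any count, because Eepd1 was already known to be lower in Cd36KO libraries. All 9 matched a single row and all 9 had counts in every library. RNA from BAT of C57BL6/J mice, labelled as 8 weeks old, was sequenced in 4 WT and 4 Cd36KO libraries. No treatment is labelled. The labels give the deletion only as Cd36KO, whereas the study describes mice with floxed Cd36 crossed to Csf1r-Cre, a driver active in myeloid cells, next to a germline knockout, and assigns its BAT transcriptome to the myeloid deletion. Its legends give the labelled age and 4 mice in each group, whereas its methods have the myeloid knockout killed at a later age and name male mice throughout. The count column of 1 Cd36KO library has no replicate number, and it is called the unnumbered Cd36KO library.

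LXRs are nuclear receptors that bind oxysterols, which are oxidized forms of cholesterol, and that act on DNA as heterodimers with the retinoid X receptors. When cell cholesterol is high, they raise the transcription of genes that carry sterol out of the cell, limit its uptake and remodel membrane phospholipids. They are best known in macrophages and liver, and in adipocytes they also act on lipid storage and thermogenic genes. The values below ask whether these genes differ in BAT when Cd36, a receptor for fatty acids and oxidized lipoproteins, is deleted.

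LXR binds a repeat of a short hexamer with 4 bases between the copies, called DR4. The letters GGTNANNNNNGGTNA, which keep the core of such a repeat, were searched on both strands of the RefSeq promoter windows on build GRCm38.p6, from 250 bases before to 50 bases after a start. Of 32851 windows in the table, 0.718% held them. A window was found for 8 of the 9 genes, 11 windows in all, and only Abca1 held a match. The match lies on chromosome 4 from 53159948 to 53159962, from 67 to 53 bases before the start, and reads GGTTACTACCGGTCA on the strand opposite to the gene. The 250 bases before the start of Abca1 and of Eepd1 are shown because these members had the lowest log2 fold changes. Both are written on the strand of the gene, and capitals mark the DR4 letters. The RefSeq start used for Eepd1 lies inside the GENCODE gene, which begins at 25481547, so the end of its stretch falls within that gene. No match in a window says only that these letters are not in it.
Abca1, chr4:53159896-53160145, minus strand: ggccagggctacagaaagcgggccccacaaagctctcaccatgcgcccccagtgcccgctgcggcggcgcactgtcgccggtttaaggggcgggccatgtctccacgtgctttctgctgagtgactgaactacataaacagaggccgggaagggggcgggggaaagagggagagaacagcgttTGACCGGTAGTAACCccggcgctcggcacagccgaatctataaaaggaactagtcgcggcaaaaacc
Eepd1, chr9:25481347-25481596, plus strand: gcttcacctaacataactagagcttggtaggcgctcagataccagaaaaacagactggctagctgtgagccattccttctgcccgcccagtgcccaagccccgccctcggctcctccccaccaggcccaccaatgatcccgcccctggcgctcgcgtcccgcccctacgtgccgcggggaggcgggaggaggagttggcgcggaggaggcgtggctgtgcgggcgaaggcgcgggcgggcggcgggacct

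Total counts ranged from 2679785 to 4097953 per library. Values are given as normalized counts, which are counts divided by a DESeq2 size factor, and are compared within a gene only. WT values are listed from replicate 1 to 4, and Cd36KO values start with the unnumbered library and go on with replicates 2, 3 and 4. Cd36 itself had 2412 to 3505 normalized counts in WT and 1926 to 2384 in Cd36KO, so the groups did not overlap, the transcript was not lost, and the log2 fold change of -0.48 did not pass (DESeq2 adjusted p = 0.0602). The labels name the stromal vascular fraction as cell type, but Adipoq and Ucp1, which mature brown adipocytes express, had at least 2458 and 4235 normalized counts in every library. Xist had 772 to 1588 counts in the 8 libraries, and 4 Y-linked genes (Uty, Kdm5d, Eif2s3y and Ddx3y) had 0 to 3 counts together, which goes against male mice. WT replicate 1 stood apart from the other WT libraries, with the lowest summed white fat markers and the highest summed skeletal muscle markers, and results that turn on it are given with and without it.

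**Figure D1:**
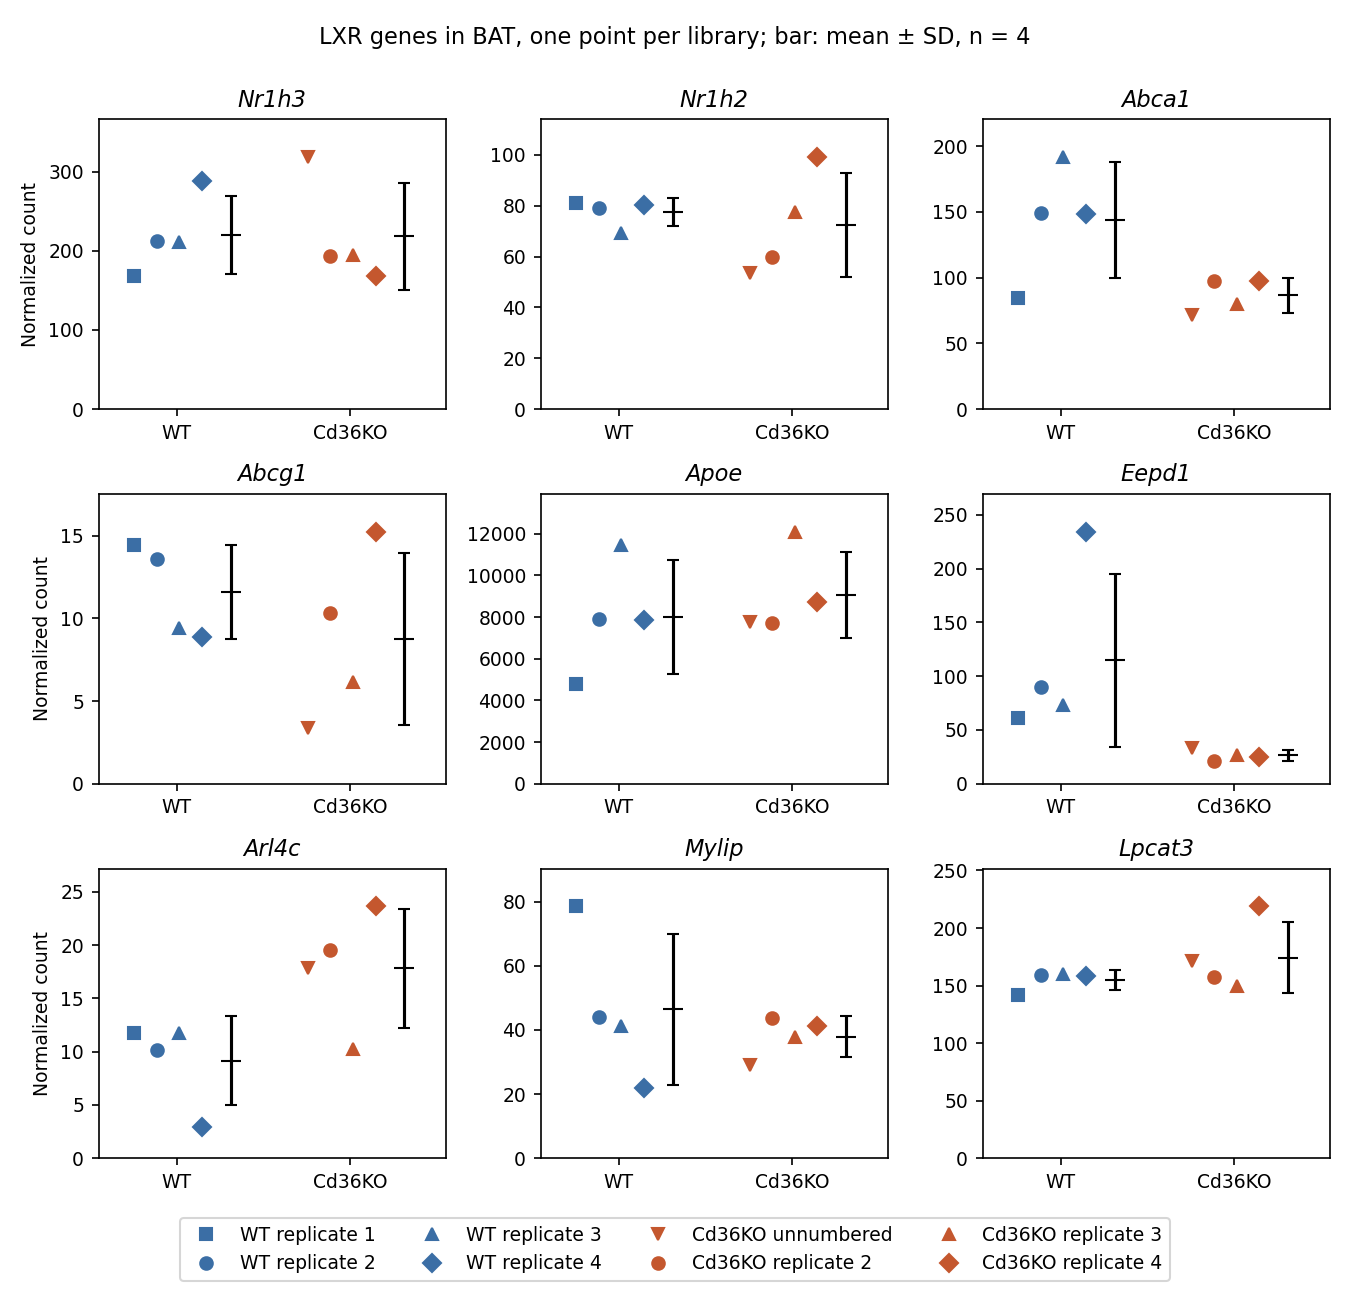
Normalized counts (vertical axis, from 0) of the 9 LXR genes, with 1 point per library for WT (blue) and Cd36KO (orange); marker shapes name the library and bars give the mean ± SD, n = 4. Eepd1 is the panel in which the groups are apart, with WT replicate 4 at 234 normalized counts; in Abca1, WT replicate 1 lies among the Cd36KO libraries.

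Both receptors were detected in all libraries, and neither passed the test between the groups. Nr1h3 (ENSMUSG00000002108, chromosome 2, 91184061 to 91202834), which encodes LXRα, had 169, 212, 212 and 288 normalized counts in WT. In Cd36KO it had 319, 193, 194 and 169. The ranges overlapped over nearly their whole width, and the highest value of all came from a Cd36KO library. Mean ± SD was 220.2 ± 49.5 for WT and 219 ± 67.7 for Cd36KO, n = 4 per group, with a log2 fold change of -0.01 and a 95% interval from -0.49 to 0.47 (DESeq2 adjusted p = 0.988). Over 6873 bases Nr1h3 overlaps Gm13783, a processed transcript on the same strand, so reads there could belong to either.

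Nr1h2 (ENSMUSG00000060601, chromosome 7, 44549616 to 44553951) encodes LXRβ, the more widely expressed receptor. It was at 81.2, 79.0, 69.4 and 80.1 normalized counts in WT. In Cd36KO it was at 53.5, 59.8, 77.7 and 99.1. The Cd36KO libraries were spread more widely and lay on both sides of the WT values. The log2 fold change was -0.08, with a 95% interval from -0.58 to 0.41 (DESeq2 adjusted p = 0.925).

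Eepd1 (ENSMUSG00000036611, chromosome 9, 25481547 to 25604110) was lower in Cd36KO, and since this difference is why it was chosen, its values are a description with no test. It encodes an endonuclease, exonuclease and phosphatase family protein that is induced through LXR in macrophages and promotes the function of ABCA1 at the cell surface. WT libraries had 61.4, 90.0, 72.9 and 234 normalized counts of Eepd1. The Cd36KO libraries had 33.4, 20.7, 26.6 and 24.4. Every Cd36KO library lay below every WT library. Mean ± SD was 115 ± 80.7 for WT and 26.3 ± 5.34 for Cd36KO, n = 4 per group. The fitted value was 4.37-fold lower in Cd36KO, which is -2.13 ± 0.41 (SE) as a log2 fold change. In this contrast 2.95% of 9617 genes with an adjusted p were called, 1.42% higher and 1.53% lower in Cd36KO, a background from which nothing is read for Eepd1. The counts behind these values were 62 to 237 in WT and 18 to 32 in Cd36KO.

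The WT values of Eepd1 differed 3.82-fold between the lowest and the highest library, against 1.61-fold among Cd36KO libraries. The highest was WT replicate 4, and without it the log2 fold change was -1.51. Leaving out WT replicate 1 gave -2.34. The other WT libraries, at 61.4 to 90.0 normalized counts, still lay above the highest Cd36KO library, at 33.4.

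White fat markers moved with Eepd1. Of the 10 markers, 6 had an adjusted p and 5 of these were called lower in Cd36KO (Lep, Hoxc8, Aldh1a1, Nnat and Agt), while Hoxc10, Wt1 and Tcf21 had no count. Their summed normalized counts ranged from 676 to 4895 in WT and from 561 to 996 in Cd36KO. WT replicate 1, at 676, lay within the Cd36KO range in that sum, and it had the lowest Eepd1 value of the WT libraries, 61.4, above the highest of Cd36KO, 33.4. With the white fat score (mean log2 CPM of the markers) as a covariate, the log2 fold change of Eepd1 was -0.76. The score was 2.45 to 3.94 in WT and 1.72 to 2.34 in Cd36KO, so it did not overlap between the genotypes and in this fit score and genotype cannot be told apart. In bulk tissue, fewer cells of a type and less RNA per cell cannot be told apart, and the part of white fat in the lower Eepd1 values was not tested.

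Macrophage markers, the transcripts of the cells in which the study deletes Cd36, overlapped between the groups in their sum. Of 13 markers, none at 0 in all libraries, 10 had an adjusted p and only Cd163 was called, lower in Cd36KO. Their summed normalized counts ranged from 640 to 1110 in WT and from 701 to 995 in Cd36KO. With the macrophage score as a covariate the log2 fold change of Eepd1 was -2.32. The score was highest in WT replicates 2 and 3, at 4.03 and 4.13 log2 CPM, and between 3.34 and 3.64 in the other 6 libraries. Of 12 brown adipocyte markers, 3 were called higher in Cd36KO (Ucp1, Cidea and Cox7a1), with sums of 36336 to 55645 normalized counts in WT and 48284 to 50832 in Cd36KO. The other 9 were not called, 5 of them with log2 fold changes below 0. Among these Fabp4, a fatty acid carrier of all adipocytes, had groups that did not overlap, at 12620 to 21855 normalized counts in WT and 5538 to 12209 in Cd36KO, and did not pass (DESeq2 adjusted p = 0.0762). The 10 skeletal muscle markers all had log2 fold changes below 0, with a median of -3.13, and 6 had an unadjusted p under 0.05, but 0 were called. With the muscle score as a covariate the log2 fold change of Eepd1 was -1.95. None of the stromal progenitor, endothelial or lymphoid markers was called, and no lymphoid marker had an adjusted p.

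**Figure D2:**
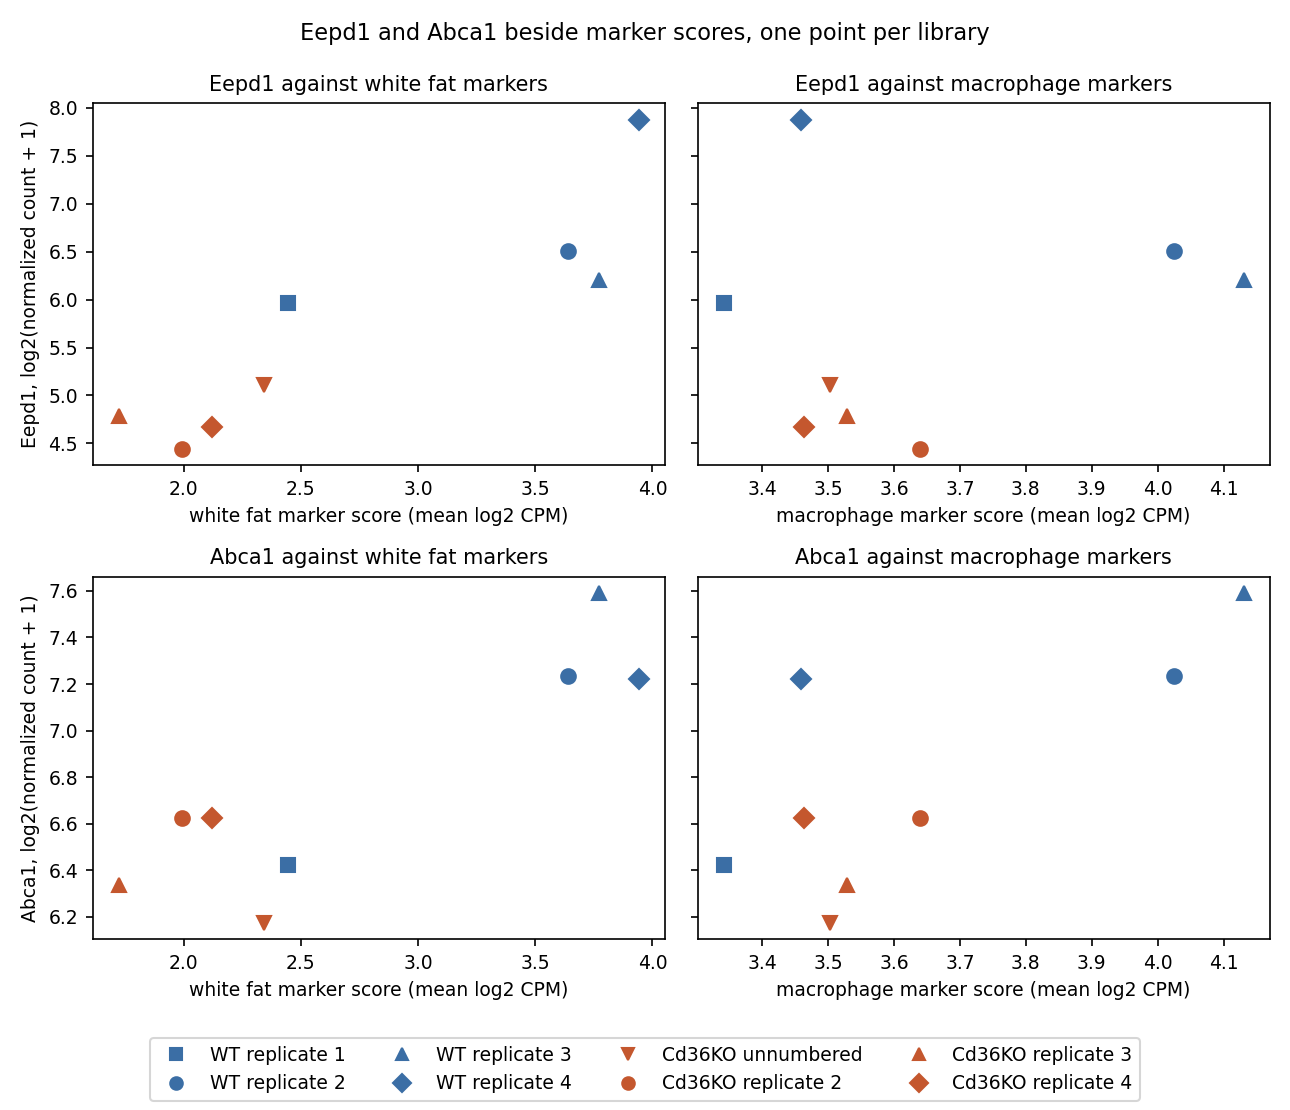
Eepd1 (top) and Abca1 (bottom), as log2(normalized count + 1), against the white fat score (left) and the macrophage score (right), each the mean log2 CPM of its markers, with 1 point per library. The Cd36KO libraries, at 1.72 to 2.34, and WT replicate 1, at 2.45, hold the low end of the white fat score, where Abca1 overlaps and Eepd1 does not.

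Among genes with a mean of at least 50 normalized counts, the 5 whose pattern was most like Eepd1 within the groups were Thoc3, Prdx1, Fmc1, Chchd4 and Hsph1. Likeness was Pearson's r of log2(normalized count + 1) over the 8 libraries, centred on the mean of each group so that the fall itself did not enter. The values were 0.99 for Thoc3 and Prdx1 and 0.98 for Fmc1, Chchd4 and Hsph1, with Spearman's rho between 0.93 and 0.98. They share with Eepd1 the high value of WT replicate 4, as for Prdx1, an antioxidant peroxiredoxin at 720.4, 837, 767 and 1692 normalized counts in WT. Without WT replicate 4 the r of the 5 genes was between 0.89 and 0.94. None of the 5 passed the test between the groups, with DESeq2 adjusted p from 0.251 to 0.960. With 8 libraries and 5527 candidate genes, r this high is given as a description. Among the members that could be ranked, Nr1h3 was the most like Eepd1, at r = 0.75, which ranked 646th of the 5527 genes, and Abca1 stood at 0.14.

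Of the 8 members other than Eepd1, 7 had an adjusted p and 0 were called by DESeq2, where 2.95% of all genes with an adjusted p were. The edgeR quasi-likelihood test also called 0 of them, where it called 0.0408% of 9793 genes higher and 0.102% lower, and Abca1 alone had an unadjusted DESeq2 p under 0.05. Their median log2 fold change was -0.01, as it was over all genes tested. Of the 5 with a mean of at least 50 normalized counts, 0 had groups that did not overlap, against 10.9% of 5528 such genes, 6.91% higher and 3.96% lower in Cd36KO.

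Abca1 (ENSMUSG00000015243, chromosome 4, 53030787 to 53159895) was the only one of these 8 whose 95% interval, from -1.24 to -0.21, left out 0. It encodes the transporter that loads cholesterol and phospholipid onto lipid-poor apolipoprotein A-I. Its values were 84.9, 149, 192 and 148 normalized counts in WT. They were 71.3, 97.8, 79.8 and 97.6 in Cd36KO. WT replicate 1 lay within the Cd36KO range and the other WT libraries lay above all of it. Mean ± SD was 144 ± 44.1 for WT and 86.6 ± 13.3 for Cd36KO, n = 4 per group. The fitted value was 1.65-fold lower in Cd36KO, a log2 fold change of -0.72 ± 0.26 (SE). This change did not pass (DESeq2 adjusted p = 0.111, exact two-sided permutation p = 0.0857). Without WT replicate 1 it was -0.91 and passed (DESeq2 adjusted p = 0.00578), and across the alternatives its adjusted p lay between 0.00578 and 0.879. With the white fat score as a covariate the value turned to 0.14, and with the macrophage score it was -0.50.

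Abcg1 (ENSMUSG00000024030, chromosome 17, 31057675 to 31117988), the transporter that passes cholesterol to high-density lipoprotein, was near the limit of this depth. It had 14.4, 13.6, 9.41 and 8.90 normalized counts in WT, and 3.34, 10.4, 6.14 and 15.3 in Cd36KO. The groups overlapped, and the counts behind the values were 3 to 20 per library. Its log2 fold change was -0.38 with a 95% interval from -1.51 to 0.75, too wide to show a difference of the size seen in Abca1, and DESeq2 gave no adjusted p at this level. It was -0.82 without Cd36KO replicate 4 and -0.12 without the unnumbered library, with the other fits that left out a library in between.

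Apoe (ENSMUSG00000002985, chromosome 7, 19696109 to 19699188), the secreted apolipoprotein that accepts effluxed lipid, was the member with by far the most reads, 5318 to 11831 counts per library. Apoe was at 4801, 7908, 11473 and 7852 normalized counts in WT. It was at 7744, 7729, 12101 and 8733 in Cd36KO. WT replicate 1 was lowest, and the other 7 libraries mixed. The log2 fold change was 0.18, with a 95% interval from -0.30 to 0.66 (DESeq2 adjusted p = 0.798). It was -0.00045 without WT replicate 1 and 0.014 without Cd36KO replicate 3. With the white fat score as a covariate it was 0.84 and did not pass (DESeq2 adjusted p = 0.139).

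Arl4c (ENSMUSG00000049866, chromosome 1, 88673125 to 88702221), a small GTPase of vesicle transport, had few reads, 3 to 31 counts per library. The WT values were 11.7, 10.2, 11.8 and 2.97 normalized counts. Those of Cd36KO were 17.8, 19.6, 10.2 and 23.6. Cd36KO replicate 3 lay among the WT libraries and the others lay above them. The log2 fold change of 0.97 ± 0.52 (SE) did not pass (DESeq2 adjusted p = 0.360; exact two-sided permutation p = 0.0857). Without WT replicate 4 it was 0.68. Its direction was opposite to that of Abca1 in every alternative except the one with the white fat score, in which both were above 0.

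Mylip (ENSMUSG00000038175, chromosome 13, 45389742 to 45412022) encodes the ubiquitin ligase, also called IDOL, that marks lipoprotein receptors for degradation. It had 78.5, 44.2, 41.2 and 21.8 normalized counts in WT. In Cd36KO it had 29.0, 43.7, 37.8 and 41.2. The WT libraries enclosed the Cd36KO values on both sides. The log2 fold change was -0.29, with a 95% interval from -1.03 to 0.44 (DESeq2 adjusted p = 0.783), and it turned to 0.089 without WT replicate 1. In WT replicate 1 the summed normalized counts of 10 skeletal muscle markers were 65613, compared with 853 to 11329 for the remaining WT libraries and 149 to 7437 for Cd36KO. With the muscle score as a covariate the log2 fold change of Mylip was -0.13, and with the white fat score it was -1.44 (DESeq2 adjusted p = 0.0818). The receptor Vldlr, one of its targets, averaged 391 ± 55.6 normalized counts in WT against 360 ± 57.3 in Cd36KO (SD, n = 4 each) and was not called. Lrp8, another target, had at most 3 counts in any library.

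Lpcat3 (ENSMUSG00000004270, chromosome 6, 124663027 to 124704418), which puts polyunsaturated fatty acids into membrane phospholipids, had the lowest ratio of SD to mean in WT among the members. It was at 142, 159, 160.0 and 158 normalized counts in WT. In Cd36KO it was at 172, 158, 149 and 219. The unnumbered library and Cd36KO replicate 4 lay above WT and the other two within it, and the log2 fold change of 0.18 had a 95% interval from -0.19 to 0.55 (DESeq2 adjusted p = 0.729). Without Cd36KO replicate 4 it was 0.045. A stretch of 334 bases of Lpcat3 overlaps Emg1 on the other strand, and since the strand setting of the counting is not stated, reads there cannot be assigned with certainty.

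**Figure D3:**
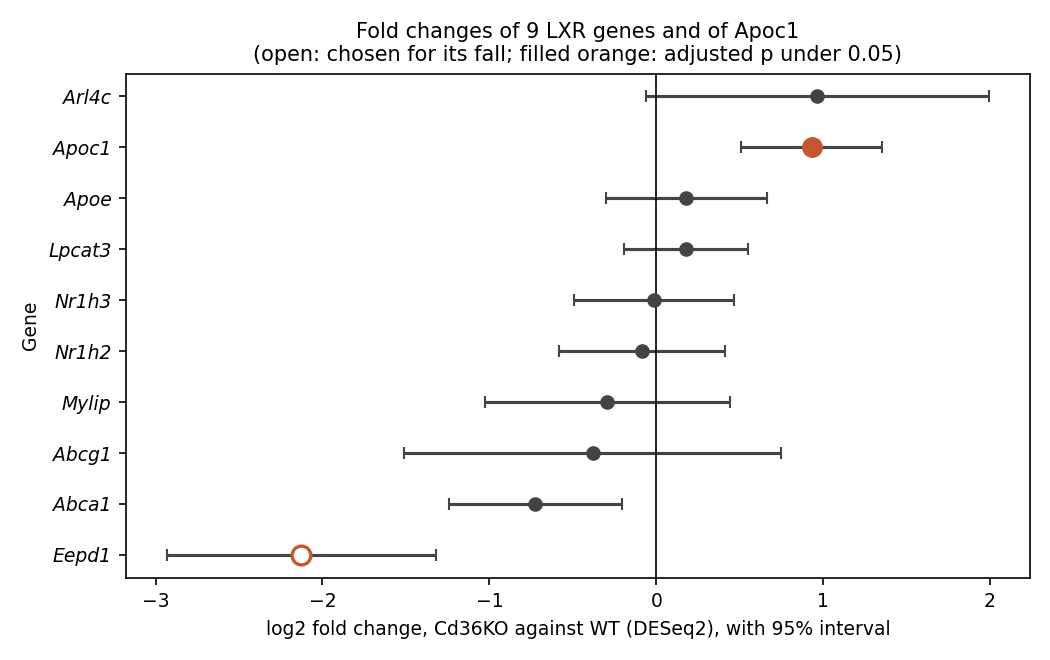
log2 fold changes of Cd36KO against WT (horizontal axis, DESeq2) with 95% intervals, for the 9 LXR genes and Apoc1; n = 4 per group. Eepd1, at -2.13, was chosen for its fall (open marker), so its interval is a description with no test. Apoc1 at 0.93 passed the threshold (filled). Of the intervals of the remaining genes, all except that of Abca1 include 0.

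Around these members, 77 further genes of 6 lists were examined, covering LXR partners, other LXR targets, oxysterol enzymes, sterol trafficking, lipoprotein receptors and SREBP2 targets. Of the 57 with an adjusted p, 1 was called, or 1.75%, against 2.95% of all genes. That gene was Apoc1. The median log2 fold change over the 57 was -0.05. Among the 37 with a mean of at least 50 normalized counts, 4 had groups that did not overlap, or 10.8%, against 10.9% of all such genes.

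Apoc1, an apolipoprotein of the same gene cluster as Apoe that slows lipoprotein clearance, rose in Cd36KO. It had 740.2, 989.5, 693 and 1172 normalized counts in WT. In Cd36KO it had 2286, 1673, 1441 and 1464. All Cd36KO libraries lay above all WT libraries. Mean ± SD was 899 ± 224 for WT and 1716 ± 394 for Cd36KO, n = 4 per group, which is 1.91-fold higher and 0.93 ± 0.22 (SE) as a log2 fold change (DESeq2 adjusted p = 0.00295). It did not pass in edgeR (adjusted p = 0.108) or in limma (adjusted p = 0.114). Apoc1 lies on chromosome 7 from 19689481 to 19692660, 3448 bases from Apoe, whose own value of 0.18 did not pass. Apoc2 and Apoc4, further along the same cluster, had no count and at most 3 counts. Both overlap a readthrough gene, Gm44805, on the same strand, so that a read there could belong to either. Gm44805 itself had no count in any library, so these values do not show that Apoc2 and Apoc4 were not expressed.

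**Figure D4:**
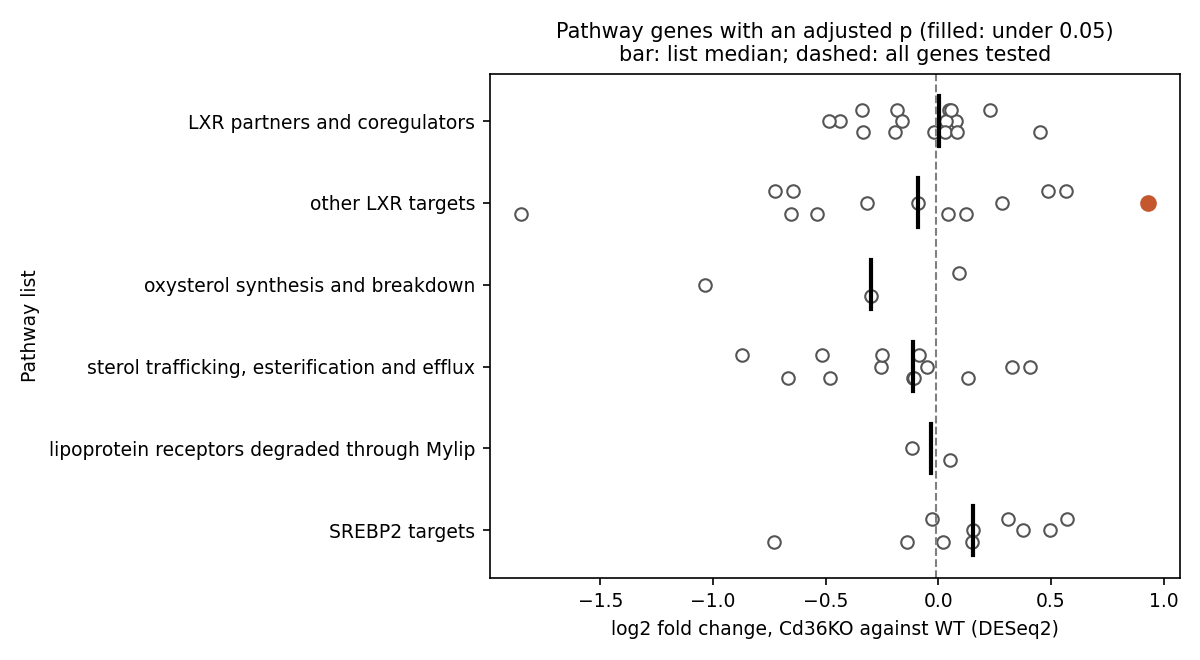
log2 fold changes of Cd36KO against WT (horizontal axis, DESeq2) for the genes with an adjusted p in the 6 pathway lists; each circle is a gene, black bars are list medians and the dashed line is the median of all genes tested. Apoc1 is the only filled circle, and the list medians lie between -0.30 and 0.15.

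Of the 20 other LXR targets, 13 had an adjusted p, 1 was called higher and 0 lower, and the median log2 fold change was -0.09. Srebf1, the lipogenic factor that LXR induces, averaged 37.4 ± 21.2 normalized counts in WT against 23.8 ± 10.5 in Cd36KO, and Scd1, a desaturase, averaged 44494 ± 15638 against 28423 ± 16394 (SD, n = 4 each). Neither passed, and Scd1 passed without Cd36KO replicate 4, at -1.09 (DESeq2 adjusted p = 0.0483). Scd2, another desaturase, was at -0.54 and did not pass (DESeq2 adjusted p = 0.480). Of the other lipogenic targets, Fasn and Acaca had log2 fold changes above 0, at 0.56 and 0.12, and did not pass (DESeq2 adjusted p = 0.810 and 0.962). With the white fat score as a covariate, Fasn was at 3.48 and Acaca at 2.79, and both passed (DESeq2 adjusted p = 0.0123 and 6.95e-08). In that fit score and genotype cannot be told apart. Lbp, which binds bacterial lipopolysaccharide, had the lowest log2 fold change of the list, -1.85 ± 0.63 (SE), and did not pass (DESeq2 adjusted p = 0.0790), with WT at 5.42 to 58.4 normalized counts and Cd36KO at 4.60 to 14.3. WT replicate 1, at 5.42, lay within the Cd36KO range, and without it Lbp was at -2.20 and passed (DESeq2 adjusted p = 0.00188). Mertk, a receptor for apoptotic cells, had 99.3 to 247 normalized counts in WT and 83.1 to 96.9 in Cd36KO, with groups that did not overlap and a log2 fold change of -0.72 that did not pass (DESeq2 adjusted p = 0.158). Mertk passed without WT replicate 1, at -0.88 (DESeq2 adjusted p = 0.0453), and without WT replicate 4, at -0.85 (DESeq2 adjusted p = 0.0466). These fits called 345 of 10264 and 498 of 5719 genes tested, and Mertk passed in no other fit. Lpl, the lipoprotein lipase, was at -0.32 and did not pass (DESeq2 adjusted p = 0.479), whereas without WT replicate 1 it was at -0.49 and passed (DESeq2 adjusted p = 0.0430). Smpdl3a, a phosphodiesterase, had 62.3 to 97.9 in WT and 105 to 127 in Cd36KO, with a log2 fold change of 0.49 (DESeq2 adjusted p = 0.229). The sterol exporters Abcg5 and Abcg8 and the bile acid enzyme Cyp7a1 had no count.

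The 16 receptor partners and coregulators all had an adjusted p and 0 were called, with a median log2 fold change of 0.00. Rxra, the partner of LXR in most tissues, averaged 164 ± 39.9 normalized counts in WT against 117 ± 13.9 in Cd36KO (SD, n = 4 each), with overlapping groups and a log2 fold change of -0.49 (DESeq2 adjusted p = 0.264). Of 9 enzymes of oxysterol synthesis and breakdown, 5 had at most 3 counts in any library, among them Ch25h, which makes 25-hydroxycholesterol. Cyp27a1, which makes 27-hydroxycholesterol, averaged 105 ± 24.3 normalized counts in WT against 84.9 ± 23.9 in Cd36KO (SD, n = 4 each), and was not called (DESeq2 adjusted p = 0.652).

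Of 17 genes of sterol trafficking, esterification and efflux, 13 had an adjusted p and 0 were called. Lipa, the lysosomal lipase that frees cholesterol from its esters, had 178 to 218 normalized counts in WT and 246 to 299.7 in Cd36KO, so the groups did not overlap, with a log2 fold change of 0.41 (DESeq2 adjusted p = 0.154). Osbp, a sterol transfer protein, had 34.6 to 41.6 in WT and 13.4 to 25.3 in Cd36KO, also without overlap, with a log2 fold change of -0.87 (DESeq2 adjusted p = 0.135). Of the 12 SREBP2 targets, which rise when cell sterol is low, 10 had an adjusted p and 0 were called, with a median log2 fold change of 0.15. Hmgcs1, an early enzyme of cholesterol synthesis, averaged 595 ± 135 normalized counts in WT against 663 ± 118 in Cd36KO (SD, n = 4 each).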

How the data were processed

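BAT RNA of 4 WT and 4 Cd36KO samples was sequenced single-end by a service for digital mRNA-seq. In the methods, reads were trimmed by bbduk, aligned to mm10 by STAR and assigned to genes by HTSeq-count, whereas the submitters' processing notes name Trimmomatic, HISAT2 and DESeq2. The deposited values are raw counts of reads for each gene. A second deposited table holds log2 values, which equal log2 of the count divided by the size factor used here, plus 1, and served only for an alternative. The annotation release and strand setting are not given in the sources used here, so overlapping genes are less certain. The tables of sample attributes were not used.

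Symbols and gene positions came from GENCODE M21 on GRCm38, with 30934 of 31053 identifiers matched, and promoters from RefSeq. All genes were fitted with DESeq2 1.42.0 (R 4.3.3), using genotype alone as predictor, median-of-ratios size factors and default filtering, as the study's methods name DESeq2. P-values were adjusted over all genes by the Benjamini-Hochberg method at a threshold of 0.05. Alternatives were edgeR 4.0.16, limma 3.58.1 on the log2 values, TMM factors, keeping genes with 10 counts in at least 4 libraries, switching independent filtering off, the replicate block, marker scores as covariates and leaving out each library. Exact permutation tests (SciPy 1.17.1) ran over 70 arrangements, whose smallest two-sided p is 0.0286. The labels do not tie libraries to mice, while the study's legends give 4 mice per group.

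Totals were 2679785 to 4097953 counts per library, and counts of 3 or fewer were taken as the floor, for counting error only. The members and gene lists were chosen with earlier results of these data known. Genes named are the 9 members, pathway genes called in DESeq2, marker genes and the 5 genes most like Eepd1 within the groups. Other pathway genes were named after their values were seen. The tests were first checked on simulated counts with 200 genes changed 3-fold. These were drawn only from genes with a mean of at least 50 normalized counts. Recovery below that level, where Abcg1, Arl4c and Mylip lie, was therefore not checked. In this simulation DESeq2 recovered 96.0% of the 200 among 13100 genes tested, edgeR 95.5% among 9910 and limma 95.0% among 9908. Of the genes called there, 10.3% were false in DESeq2, above the threshold, 6.83% in edgeR and 4.52% in limma. Figures were drawn with matplotlib 3.10.9.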

Additional observations from a re-analysis of the deposited data

Results flagged for a closer look

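In 3 of the 34 groups tested, 1 library stood far from the rest, where chance gives 1.7, since about 1 in 20 such groups is marked by chance. WT replicate 4 had a log2(normalized count + 1) of 1.99 for Arl4c, where the other WT libraries had 3.48 to 3.67, and this is the library that was highest for Eepd1. WT replicate 1 had 7.16 for Lpcat3, against 7.32 to 7.33 in the other WT libraries. The lymphoid marker score of Cd36KO replicate 2 was -0.68 as mean log2 CPM, where the rest of the group had 0.024 to 0.12, and 1 of its 5 markers had no count in any library.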

How the results depend on the processing

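Eepd1 had a log2 fold change from -2.47 to -0.76 over the 18 alternatives, the last with the white fat score as covariate. These fits reuse the libraries in which Eepd1 was chosen for its fall, so they describe its size and lend it no support. Apoc1 stayed higher in all 18 and passed in 16, all but edgeR and limma. For every changed value given here, the cause was not tested. Over the 142 fits of the other 8 members, 16 turned the sign and 3, all of Abca1, passed.

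Genes called over the whole table, 284 in DESeq2, were 14 in edgeR, 171 with independent filtering off, 183 with the muscle score, 716 with the white fat score and 128 with the macrophage score. Limma called 0, with 1556 genes at an unadjusted p under 0.05. Leaving out a library gave 70 (without WT replicate 2) to 498 (without WT replicate 4), and 140, 113, 133 and 125 without WT replicate 3, the unnumbered library and Cd36KO replicates 3 and 4. Of the 8 members other than Eepd1, 1 (Abca1) was called with the muscle score (-1.03), in the 6 same-numbered libraries and without WT replicate 1. Over the whole table these fits called 183 of 6717, 262 of 11361 and 345 of 10264 genes tested. The 6 same-numbered libraries also lack WT replicate 1. Fits that left out a library called 0 to 1 of the 8 members. Pathway genes called, 1 in DESeq2, were 0 in edgeR and limma and 6 with the white fat score (Apoc1, Cyp51, Acaca, Npc2, Fdft1 and Fasn). With that score 716 of 7040 genes tested were called, against 284 of 9617 in DESeq2, so nothing is read from the 6. When a library was left out, 1 to 4 pathway genes were called, while the whole table gave 70 to 498. Beside Apoc1 these were Lbp, Mertk and Lpl without WT replicate 1, Mertk and Slc2a4 without WT replicate 4, and Scd1 without Cd36KO replicate 4.

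Same-numbered libraries are not known to be paired, and their deviations correlated at -0.12, 0.39 and 0.14 for replicates 2, 3 and 4. When these 3 pairs were fitted with the replicate block, 221 genes, 2 pathway genes and 0 of the 8 members were called, against 262, 3 and 1 in the same libraries without it. Lbp passed in both, at -2.07 and -2.04 (DESeq2 adjusted p = 0.0338 and 0.0144), and Lpl without the block. Eepd1 was -2.30 with the block and -2.47 without. Nr1h2 turned to 0.032 with the block and 0.060 without, Mylip to 0.255 and 0.198, and Abcg1 to 0.0033 without it.

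Other turned signs were Nr1h3 at 0.12 with the muscle and 0.68 with the white fat score, Apoe at -0.20 with the muscle score and Abca1 at 0.14 with the white fat score. Over fits that left out a library, the values ran from -0.25 to 0.14 for Nr1h3, -0.28 to 0.037 for Nr1h2, -0.00045 to 0.41 for Apoe, -0.53 to 0.089 for Mylip and -0.91 to -0.55 for Abca1. Arl4c and Lpcat3 kept their sign in all 18, and Lpcat3 was 0.045 to 0.25 and Abcg1 -0.82 to -0.12 when a library was left out. At this depth Abcg1 and Arl4c, with at most 20 and 31 counts in a library, could show only large differences.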
